A study of Mus musculus with 16 samples.

Results

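The spinal cords of mice given atorvastatin in the chronic stage of a compression injury were compared with the cords of injured mice given the vehicle alone. All 14 injured libraries entered the comparison, 7 labelled SCI + Atorvastatin and 7 labelled SCI + Vehicle, of 16 libraries in the series. The other 2 libraries, from the Uninjured Control group, were left out. Of 24411 genes in the count table, 21820 had at least 1 count in these libraries, and the 16361 genes with at least 10 counts in at least 7 of the 14 were tested. All mice were female C57BL/6J, 12 weeks old at injury, and the cord was compressed from the sides at the thoracic level to a gap of 0.25 mm. From 2 weeks after injury the mice received either 10 mg/kg atorvastatin or vehicle every day for 4 weeks, and tissue was taken at 6 weeks. The vehicle was 61% saline with 35% PEG 400 and 2% each of DMSO and Tween 80, and it was given to both groups. Each library was made from the RNA of a 5 mm section of whole cord, so neurons, glia, blood vessels, scar tissue and invading immune cells were measured together. The series holds no uninjured mice given the drug, so what the drug does in an intact cord was not measured.

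Atorvastatin is a statin, a drug class that blocks an early step of the mevalonate pathway. Mevalonate is made into cholesterol and into the prenyl groups that anchor small GTPases to membranes. When sterols run low in a cell, the transcription factor SREBP2 is released from the endoplasmic reticulum and switches on the genes of cholesterol synthesis and uptake, so a cell in which a statin acts usually makes more of their mRNA. In endothelium statins are also known for raising the transcription factors KLF2 and KLF4. In the injured cord, macrophages loaded with myelin debris, reactive astrocytes and fibroblasts form the lasting scar.

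Totals lay between 14823292 and 25579826 counts per library, and a gene with no count in a library could be present at up to 0.117 to 0.202 counts per 1000000 (CPM), a limit of 3 counts. Levels below are in CPM scaled by edgeR's TMM factors, and differences are log2 fold changes of SCI + Atorvastatin over SCI + Vehicle, so a value above 0 is a higher level in the treated cords. The tissue label fitted the markers: the summed level of 14 neuron markers was at least 6636 CPM, and that of 10 oligodendrocyte markers was highest in vehicle library 7 at 19676 CPM. Some libraries stood apart. On the first principal component, with 20.4% of the variance, vehicle library 7 lay at 105 and vehicle library 4 at 51.6, while the other 12 lay between -37.1 and 8.78. Vehicle library 1 had the lowest mean correlation with the other libraries of its group, 0.918, next to 0.920 for vehicle library 7. It had 18232 genes with at least 10 counts, where the next highest, atorvastatin library 4, had 16892. Skeletal muscle markers summed to 2541 CPM in atorvastatin library 2 and to 718 CPM in vehicle library 3. Most lists described below are also given without the libraries that moved them.

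No gene passed an adjusted p of 0.05 in edgeR's quasi-likelihood test with Benjamini-Hochberg adjustment, and the smallest adjusted p was 0.738. At an unadjusted p below 0.05 the same test had 1067 genes, 6.52% of those tested, where 818 would be reached if no gene changed. Of these, 641 (3.92%) had the higher level with atorvastatin and 426 (2.6%) the lower. Without vehicle libraries 4 and 7 there were 623. Without vehicle library 1 there were 1587, and without vehicle libraries 1 and 7 there were 1175. At an unadjusted p below 0.001 alone there were 16 genes, where 16.4 would be reached if no gene changed. A limit of an unadjusted p below 0.001 with a change above 25% was passed by 16 genes (0.0978%), 13 of them higher with atorvastatin (0.0795%) and 3 lower (0.0183%). That number was 5 without atorvastatin library 2 or 7, 6 without vehicle library 4 or 7, 7, 8 or 10 without atorvastatin library 5, 6 or 3, and 30 or 31 without vehicle library 2 or 1. DESeq2 and limma also gave 0 genes after adjustment in these libraries. Below, a gene with an unadjusted p below 0.05 is called nominal, and no gene or list is said to have changed. The median log2 fold change over all tested genes was -0.00, the middle 50% of genes lay between -0.12 and 0.13, and 49.4% of genes had an estimate above 0. These are the values against which each list below is read. Members of a list were measured in the same 14 libraries and can rise and fall together. They are not independent, so shares of nominal members are given as a description.

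The pathway of the drug comes first. Hmgcs1 (chr13:119690351-119708260 of GRCm38.p6), a synthase at the head of the pathway and a textbook SREBP2 target, had a log2 fold change of -0.13 with a 95% interval of -0.37 to 0.11. That interval reached from 0.775 to 1.08 times the vehicle level. Its treated libraries lay between 97.1 and 132 CPM (median 119.7) and its vehicle libraries between 89.7 and 168 CPM (median 115). The groups overlapped fully.

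The Hmgcs1 promoter is shown because, of the promoters of the sterol lists found in the RefSeq table for GRCm38.p6, it was the one window that held the sterol regulatory element TCACNCCAC, the letters SREBP is known to bind. The window, chr13:119690101-119690400 on the + strand, runs from 250 bases before the gene start to 50 after it, and the capitals mark the element, which ends 129 bases before the start.
Hmgcs1: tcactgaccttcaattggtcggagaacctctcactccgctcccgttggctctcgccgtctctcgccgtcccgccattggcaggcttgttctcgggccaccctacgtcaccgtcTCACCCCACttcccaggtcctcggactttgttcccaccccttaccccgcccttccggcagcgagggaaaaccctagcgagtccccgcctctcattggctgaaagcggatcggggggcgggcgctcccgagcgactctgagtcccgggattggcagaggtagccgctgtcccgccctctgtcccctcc
Both strands were searched. The element was in 408 of all 32851 promoter windows (1.24%), in 1 of 11 windows of the mevalonate list, in 0 of 11 windows of the squalene-to-cholesterol list and in 0 of 17 windows of the list on SREBP regulation and sterol uptake. A match is a run of letters and does not show that the factor was bound there.

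The other sterol genes of the panel also had estimates near 0. Idi1, which isomerises the 5-carbon building block, had a log2 fold change of -0.10 (95% interval -0.59 to 0.38). Fdps, the source of farnesyl pyrophosphate, had -0.08, and Sqle, the squalene epoxidase, had -0.03. Insig1, which holds SREBP back when sterols are plentiful, had 0.06. The transcription factor genes Srebf2 and Srebf1 had 0.00 and -0.00.

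By list, the 12 tested genes of mevalonate and prenyl synthesis had a median of -0.05, with 4 estimates above 0 and 8 below. Pmvk, the phosphomevalonate kinase, was nominal on the higher side at 0.25 and Dhdds, a subunit of the enzyme for dolichol chains, on the lower side at -0.26. Of 12 genes from squalene to cholesterol, 10 had estimates below 0 and 2 above, the median was -0.11, and it stayed between -0.18 and -0.07 when any single library was left out. Nsdhl, a sterol demethylation enzyme, was nominal at -0.42 and was 1 of 2 nominal genes of the list, which had 0 and a median of -0.07 without vehicle libraries 4 and 7. Leaving out vehicle libraries 1 and 7 instead gave the mevalonate list a median of 0.04, above 0. The 15 genes of SREBP regulation and sterol uptake had a median of -0.00, with 6 above 0 and 9 below and none nominal. The 10 prenyl transferases and CAAX processing genes, which attach and trim the prenyl group, had a median of -0.03, and the intervals of 10 of 10 lay within 1.5-fold in either direction.

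**Figure D1:**
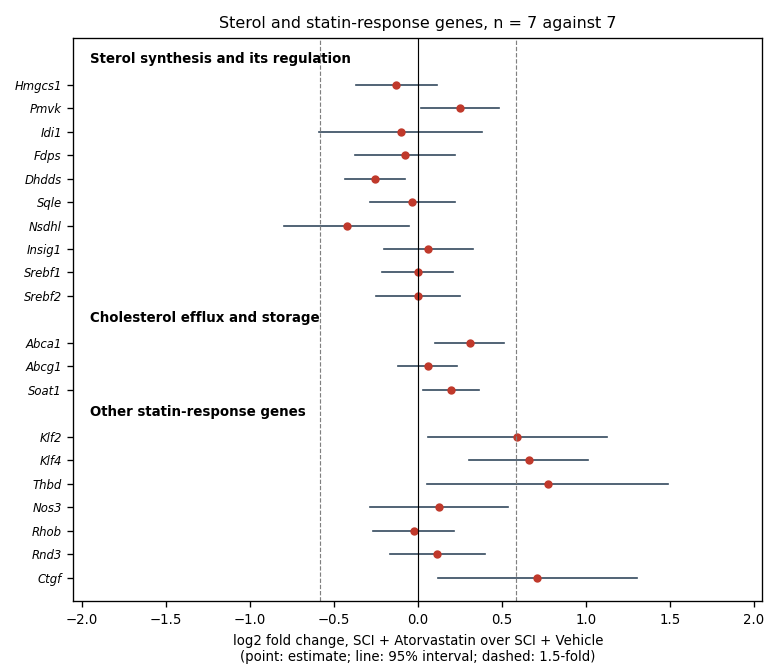
Log2 fold change of SCI + Atorvastatin over SCI + Vehicle (x axis) for named genes of sterol synthesis, cholesterol efflux and storage, and other statin responses (y axis). Points are edgeR estimates and lines 95% intervals (n = 7 against 7), and the dashed lines mark 1.5-fold. Hmgcs1 (-0.13), Sqle (-0.03) and Srebf2 (0.00) have intervals that span 0, while those of Abca1 (0.31), Klf2 (0.59) and Klf4 (0.66) lie to its right.

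Among the genes of cholesterol efflux, 1 stood out. Abca1 (chr4:53030789-53159988), the pump that loads cholesterol onto apolipoproteins and a target of the oxysterol receptor LXR, lay between 666 and 809 CPM (median 734) with atorvastatin and between 376 and 700 CPM (median 614) with vehicle. The lowest treated library was below the highest vehicle library, and vehicle library 7 was the lowest of all 14. The log2 fold change was 0.31 with an interval of 0.10 to 0.51, nominal at an unadjusted p of 0.00526 in edgeR's test. The estimate for gene Abca1 was 0.21 without vehicle library 7. Abcg1, its partner pump, had 0.06. Over the 15 tested LXR and efflux genes the median was 0.14, with 10 above 0, 5 below and 2 nominal, the second being Soat1 (0.20), which makes cholesteryl esters for storage. Leaving out vehicle library 7 alone lowered the list median to 0.07, with 1 nominal gene.

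Genes that statins are known to move outside the sterol pathway were mixed. Klf4 (9.91 to 22.5 CPM, median 16.4, against 7.74 to 11.4, median 10.8) had a log2 fold change of 0.66 and Klf2 (7.38 to 20.2 CPM, median 18.4, against 4.06 to 15.5, median 13.04) one of 0.59. Both sets of libraries overlapped, with 6 of 7 treated libraries above the vehicle median for Klf4. In vehicle libraries 1 and 7 Klf2 was at 4.06 and 6.41 CPM, and in the rest of that group at 10.8 to 15.5 CPM. The list of KLF and endothelial statin-response genes had 13 tested members, 11 above 0 and 2 below, a median of 0.29 and 4 nominal genes, all on the higher side. Beside Klf2 and Klf4 these included Thbd (0.77), the endothelial thrombin receptor. The list median was 0.16 without atorvastatin library 7, and it was 0.20 without vehicle libraries 4 and 7, with 9 of 13 above 0. Without vehicle libraries 1 and 7 the list median was also 0.20, with 2 nominal genes. Nos3, the endothelial nitric oxide synthase, had 0.13, Rhob -0.03 and Rnd3 0.12, none of them nominal. Ctgf, a secreted matrix protein and target of YAP that is also called Ccn2, was nominal at 0.71 (32.7 to 79.6 CPM, median 49.6, against 9.91 to 49.8, median 37.9). In vehicle libraries 4 and 7 Ctgf was at 10.2 and 9.91 CPM, and in the rest of that group at 33.5 to 49.8 CPM.

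The genes with the smallest p in the higher direction were led by Plekhg2 (chr7:28359603-28372681), an exchange factor for small GTPases. It lay between 16.7 and 30.7 CPM (median 26.2) in the treated cords and between 10.5 and 20.4 CPM (median 13.3) in the vehicle cords. The groups overlapped, the log2 fold change was 0.78 with an interval of 0.43 to 1.13, and the unadjusted p of 0.000134 became 0.738 after adjustment. Pear1, a receptor of platelets and endothelium, had 0.87 (10.1 to 23.6 CPM against 5.57 to 11.7). Cd248, known as endosialin and made by fibroblasts and pericytes, had 0.97 (8.55 to 14.99 CPM against 2.59 to 9.89). Serpinh1, the chaperone that folds procollagen, had 0.77 (46.9 to 94.0 CPM against 23.8 to 63.8). It was at 23.8 and 24.8 CPM in vehicle libraries 4 and 7 and at 41.1 to 63.8 CPM in the rest of that group.

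Fabp7, a fatty acid binding protein of radial glia and astrocytes, was the only one of these 20 genes whose groups did not overlap. Its treated libraries lay between 68.1 and 97.5 CPM (median 72.7) and its vehicle libraries between 55.9 and 65.8 CPM (median 58.3), a log2 fold change of 0.37. Rai14 (0.50), an actin-associated protein, Tmem2 (0.52), a cell surface protein tied to hyaluronan breakdown, and Casp12 (0.62), an inflammatory caspase linked to the endoplasmic reticulum, followed. The last of the first 10 beside Klf4 was 1500015O10Rik at 1.14, a secreted peptide gene also known as Ecrg4.

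In the lower direction the leading gene was Lhx1 (chr11:84517975-84525534), a LIM homeobox factor of spinal interneurons. It lay between 2.34 and 5.62 CPM (median 3.01) with atorvastatin and between 5.04 and 8.04 CPM (median 7.34) with vehicle, a log2 fold change of -1.01 with an interval of -1.52 to -0.50. No treated library reached the vehicle median, although the ranges overlapped. Unc5c, a receptor for the guidance cue netrin, had -0.43 (33.7 to 53.6 CPM against 43.1 to 68.0), and Mapk10, the JNK3 kinase of neurons, had -0.29 (172 to 219 CPM against 213 to 276). Stk32a (-0.37), Inpp5j (-0.35), Pgbd5 (-0.36), Palm3 (-0.68), Ppm1g (-0.29), Cdc7 (-0.61) and 2610100L16Rik (-0.71) made up the rest of the first 10.

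The groups did not overlap for 8 genes with the higher level in treated cords (0.0489% of those tested) and for 6 with the lower (0.0367%). The higher ones were Fabp7, Slc25a24, Myl9, Col5a1, Map3k2, Abcc3, Slc39a4 and Cttnbp2nl, and the lower ones Serpinb1b, Glul, Gcnt4, Rbm8a, Tab3 and Pomk. These genes were named after their values were seen. The 14 libraries can be split into groups of 7 in 3432 ways. Among so many tested genes, some would therefore separate fully even if no gene changed. How many was not worked out, so the separated genes are given as a description. Cttnbp2nl, with a log2 fold change of 0.12, was not nominal. Glul, the glutamine synthetase of astrocytes, lay at 895 to 973 CPM (median 939) against 1011 to 1094 CPM (median 1044). Its log2 fold change was -0.16 with an interval of -0.26 to -0.05. Myl9, the regulatory light chain of smooth muscle myosin, lay between 10.8 and 15.02 CPM (median 12.9) against 2.80 and 10.7 CPM (median 8.46), a log2 fold change of 0.76.

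**Figure D2:**
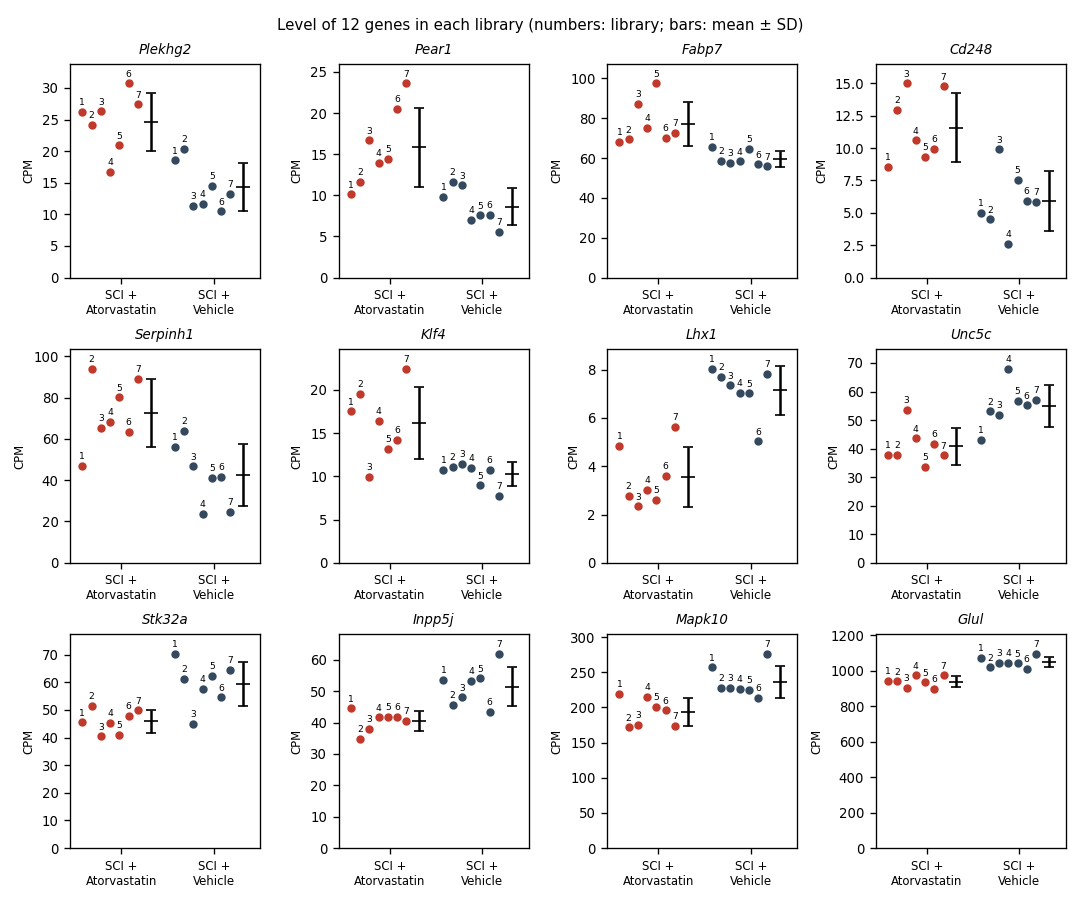
Level in CPM (y axis, from 0) of 12 genes in each library, with the treated group on the left, the vehicle group on the right and the library number above each point. Bars are mean ± SD over 7 libraries. Fabp7 (68.1 to 97.5 against 55.9 to 65.8 CPM) and Glul (895 to 973 against 1011 to 1094 CPM) do not overlap, while Plekhg2, Klf4 and Lhx1 do.

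Ranked by their median, 46 of 78 pathway lists lay above 0 and 32 below, and 38 lay within 0.1 of it. Medians of 5 lists exceeded 0.3 and 11 were below -0.1. From the top, the 5 highest were collagens, fibroblast and scar matrix, fatty acid binding proteins, smooth muscle contractile genes, and peripheral myelin and Schwann cell genes. The 5 lowest were all lists of neuronal genes. Fatty acid binding proteins, which carry lipids within cells, had 8 of 9 members above 0 and a median of 0.37, and only Fabp7 was nominal. Without vehicle libraries 4 and 7 that median was 0.29. Peripheral myelin and Schwann cell genes had 11 of 16 above 0, a median of 0.32 and 1 nominal gene, and their median was 0.17 without vehicle library 7 and 0.05 without vehicle libraries 4 and 7.

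**Figure D3:**
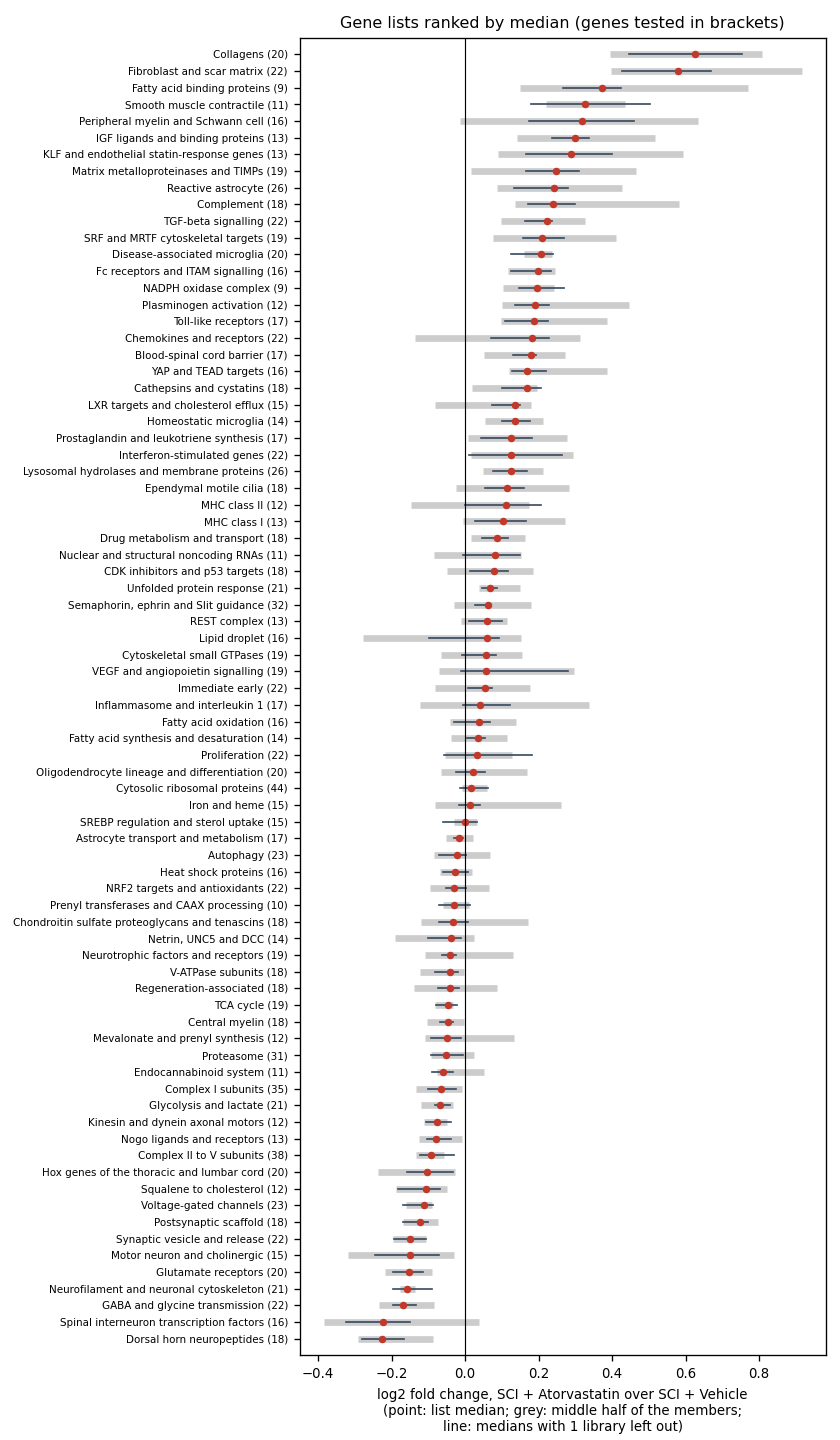
Median log2 fold change (x axis) of 78 pathway lists (y axis, genes tested in brackets), ordered from highest to lowest. Points are medians, grey bars span the middle 50% of members, and dark lines span the medians found with 1 library left out. Collagens (0.63) and the fibroblast and scar list (0.58) stand at the top, and dorsal horn neuropeptides (-0.23) at the bottom.

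Collagens, the fibrous proteins of scar and basement membrane, led the ranking. Estimates were above 0 for 20 of 20 tested collagen genes, with a median of 0.63, and 15 of 20 (75%) were nominal, all on the higher side, against 3.92% of all genes. Among fibrillar chains, Col3a1 had a log2 fold change of 1.201, its treated libraries lying between 154 and 461 CPM (median 265) and its vehicle libraries between 13 and 232 CPM (median 132). Col1a1 (chr11:94936224-94953042) lay between 105 and 588 CPM (median 279) against 47.9 and 387 CPM (median 148), a log2 fold change of 0.84. Col1a2 had 0.80 and Col8a2, a short-chain collagen, 0.99. Col5a1, which nucleates type I fibrils, was at 53.01 to 87.6 CPM (median 66.2) against 13.8 to 52.9 CPM (median 48.8), with no overlap and a log2 fold change of 0.75. Col4a1 of the vascular basement membrane had 0.57.

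The collagen list summed to 1429 to 3025 CPM in the treated libraries (2071 ± 639, SD, n = 7) and to 597 to 1853 CPM in the vehicle libraries (1309 ± 452, SD, n = 7). The lowest sums were those of vehicle libraries 7 and 4, the libraries that stood apart on the first principal component, and the highest those of atorvastatin libraries 7 and 2. With vehicle libraries 4 and 7 left out, 20 of 20 collagen estimates were still above 0, the median was 0.41, and 9 were nominal. In that fit 3.81% of all genes were nominal. The part of these 2 libraries in the full result was not tested further.

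The list of fibroblast and scar matrix genes behaved alike, with 21 of 22 estimates above 0, a median of 0.58 and 9 nominal genes on the higher side. Lum (1.37), which spaces collagen fibrils, Dcn (1.05), a proteoglycan that binds them, Pcolce (0.97), which helps cleave procollagen, Fbn1 (0.64) of microfibrils and Pdgfrb (0.49), a receptor of pericytes and fibroblasts, were among them. Lum lay between 10.2 and 52.9 CPM (median 29.5) against 1.59 and 23.4 CPM (median 11.7), with overlapping groups. Thy1, a surface protein shared by fibroblasts and neurons, was the one member below 0 (-0.19). In the fit that left out the same pair, the list had 20 of 22 above 0, a median of 0.33 and 6 nominal genes. Several collagens are also in the list of 10 fibroblast markers, where 10 of 10 estimates were above 0 and 7 nominal, with a median of 0.85 that became 0.49, with 3 nominal, without those 2 libraries. In whole tissue, more cells of a type and more RNA per cell cannot be told apart.

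**Figure D4:**
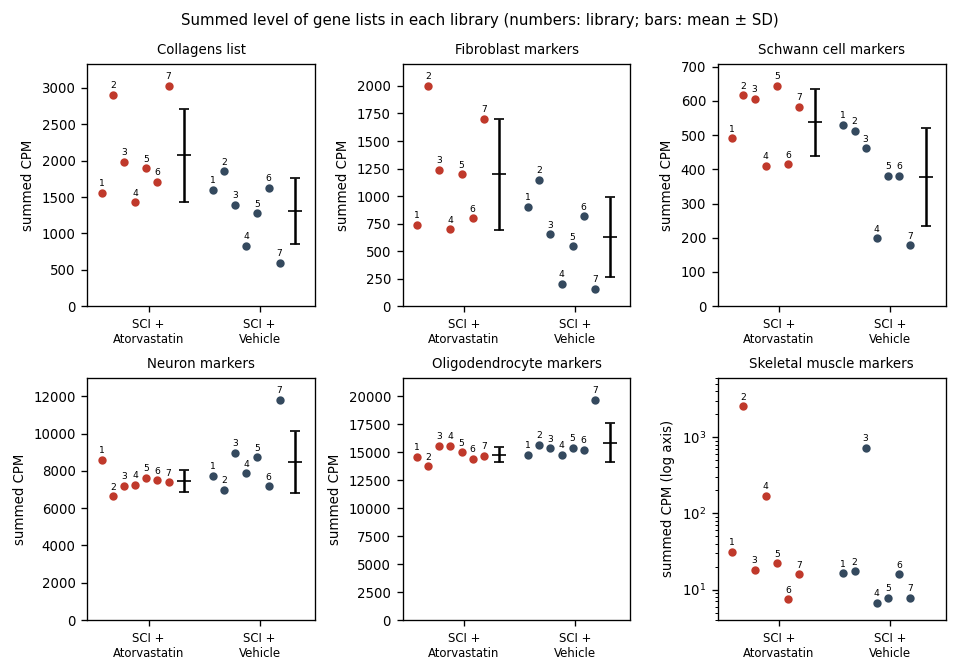
Summed level in CPM (y axis, from 0 except for skeletal muscle, which has a log axis) of 6 gene lists in each library, numbered, with mean ± SD over 7 libraries as bars where drawn. Collagen sums are 1429 to 3025 CPM with atorvastatin and 597 to 1853 CPM with vehicle, vehicle library 7 is lowest for collagens and highest for neuron markers (11810 CPM), and skeletal muscle is led by 1 library in each group.

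Matrix turnover and growth factor lists followed at smaller size. The 19 metalloproteinases and TIMPs had a median of 0.25, with 15 above 0 and 4 nominal, Mmp11 (0.70), Mmp12 (0.50), Timp1 (0.50) and Mmp14 (0.31). The 13 IGF ligands and binding proteins had a median of 0.30, with 11 above 0 and 5 nominal. Igf1, a growth factor made by microglia and fibroblasts, lay between 100.1 and 179 CPM (median 139) against 42.5 and 145 CPM (median 97.0), a log2 fold change of 0.52. Igfbp2 had 0.64 and Igfbp5 0.31. Of 22 TGF-beta signalling genes, 20 were above 0 and 6 nominal, with a median of 0.22. These included the receptor genes Tgfbr1 (0.25), Tgfbr2 (0.25) and Tgfbr3 (0.40) and the latency protein Ltbp1 (0.64), while the ligand Tgfb1 had 0.24 with an interval of -0.20 to 0.68. With vehicle libraries 4 and 7 left out, the medians were 0.10 for metalloproteinases and TIMPs with 2 nominal, 0.17 for IGF genes with 2 nominal and 0.15 for TGF-beta genes with 5 nominal.

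Smooth muscle and actin genes were above 0 in most members. Of 11 contractile genes of smooth muscle, 10 were above 0, the median was 0.33, and 2 were nominal, Smtn (0.81), which encodes smoothelin, and Tagln (0.43). The median was 0.18 without atorvastatin library 7 and 0.50 without vehicle library 1, and without vehicle libraries 4 and 7 it was 0.12. The 19 targets of SRF and its actin-sensing partner MRTF had 17 above 0, a median of 0.21 and 6 nominal genes, all on the higher side. Fhl3 (1.15), Myl9 (0.76), Filip1l (0.59), Cnn2 (0.45), Flna (0.31) and Myh9 (0.26) made up the 6. There were 3 nominal genes without vehicle libraries 4 and 7, with a median of 0.13. The 16 YAP and TEAD targets had 13 above 0, a median of 0.17 and 4 nominal genes, Ctgf among them, and without that pair a median of 0.12 and 2 nominal genes.

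SRF binds the CArG box, and 9 of 23 RefSeq promoter windows of its list (39.1%), from 8 of 17 genes, held one, where 535 of all 32851 windows (1.63%) did. The list was made of known SRF targets, so this share describes how it was made. The stretches around the box are shown for some nominal and other members, 60 bases each with the box in capitals, to let the sequences be set beside the estimates. Fhl1 (0.20) and Fhl2 (0.37) also held a box, were not nominal and are not shown. No box was found for the nominal members Fhl3, Flna and Myh9, but only 17 of the 19 tested members had a window. Myl9 (chr2:156775278-156775337, + strand), Filip1l (chr16:57549155-57549214, + strand) and Cnn2 (chr10:79988519-79988578, + strand) were nominal, while Srf itself (chr17:46556210-46556269, - strand), with 2 boxes, Actg1 (chr11:120348551-120348610, - strand) and Vcl (chr14:20929148-20929207, + strand) were not.
Myl9: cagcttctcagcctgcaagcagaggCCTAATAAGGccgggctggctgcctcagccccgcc
Filip1l: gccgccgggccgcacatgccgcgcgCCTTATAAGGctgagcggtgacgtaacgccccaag
Cnn2: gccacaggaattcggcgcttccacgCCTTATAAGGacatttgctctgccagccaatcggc
Srf: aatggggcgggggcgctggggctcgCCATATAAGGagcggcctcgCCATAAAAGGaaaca
Actg1: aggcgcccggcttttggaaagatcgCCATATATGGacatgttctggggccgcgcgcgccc
Vcl: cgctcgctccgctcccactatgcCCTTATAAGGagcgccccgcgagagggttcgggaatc
The same 10 letters stand in Filip1l and Cnn2, with estimates of 0.59 and 0.45, and in Vcl, an adhesion protein at 0.20. Srf had 0.08 and Actg1, the cytoplasmic gamma actin, 0.06 with an interval of -0.07 to 0.19. Among the 8 windows of the smooth muscle list, from 8 of its 11 tested genes, 0 held the box. Windows ran from 250 bases before the gene start to 50 after it. Boxes elsewhere, or with a changed letter, were not searched for.

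Microglia and macrophage lists shared a direction with small sizes. All 20 tested genes of disease-associated microglia were above 0, with a median of 0.21, and 6 were nominal. Gpnmb, a glycoprotein of lipid-filled phagocytes, lay between 458 and 875 CPM (median 618) against 252 and 682 CPM (median 506), a log2 fold change of 0.34, and Cd63 and Ctsd of the lysosome both had 0.24. Trem2, the lipid-sensing receptor, had 0.18 with an interval of -0.09 to 0.45, and Apoe 0.14 with an interval of -0.03 to 0.32. The 14 homeostatic microglia genes had a median of 0.14 with 12 above 0 and 3 nominal, and the 26 lysosomal genes a median of 0.12 with 22 above 0 and 4 nominal. The 16 genes of Fc receptors and ITAM signalling had a median of 0.20 with 4 nominal. Leaving out vehicle libraries 4 and 7 gave the disease-associated list 19 of 20 above 0, a median of 0.11 and 1 nominal gene. In the same fit the homeostatic list had 9 of 14 above 0, a median of 0.07 and 0 nominal, the lysosomal list a median of 0.05 and 0 nominal, and the Fc receptor list a median of 0.12 and 1 nominal. Without vehicle library 7 alone the lysosomal median was 0.08 with 0 nominal, and the Fc receptor list had 1 nominal gene. Without atorvastatin library 3 the medians of the disease-associated and Fc receptor lists were both 0.12. With vehicle libraries 1 and 7 left out instead, the disease-associated list had a median of 0.19 and 6 nominal genes. The lysosomal list then had 0.11 and 6, the Fc receptor list 0.15 and 4, and the homeostatic list 0.12 and 1.

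Complement genes, which tag debris and synapses, had 17 of 18 estimates above 0, a median of 0.24 and 6 nominal genes. C1s1 (0.88), a protease of the first complex, Serping1 (0.67), an inhibitor of that complex, and C3ar1 (0.45), the receptor for C3a, were larger than C1qc (0.22) and C4b (0.17). C3 lay between 1126 and 1561 CPM (median 1345) against 790 and 1326 CPM (median 1269), a log2 fold change of 0.18 that was not nominal. Reactive astrocyte genes had 23 of 26 above 0, a median of 0.24 and 8 nominal genes, Emp1 (0.70), Serping1, Cp (0.54), Timp1, Aspg (0.50), S1pr3 (0.46), Tm4sf1 (0.30) and Vim (0.23). Gfap, the defining filament of reactive astrocytes, lay at 6433 to 7511 CPM (median 6903) against 6103 to 7050 CPM (median 6714). Its log2 fold change was 0.07 with an interval of -0.04 to 0.18. The complement median was 0.13 with 1 nominal gene when vehicle libraries 4 and 7 were left out, and 0.17 with 2 nominal without vehicle library 7 alone. The reactive astrocyte median was 0.10 with 4 nominal without the pair, and 0.13 with 5 nominal without vehicle library 7. Leaving out vehicle libraries 1 and 7 gave 0.19 with 4 nominal for complement and 0.15 with 6 nominal for reactive astrocytes.

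Most genes of the neuronal lists had estimates below 0. Of 18 dorsal horn neuropeptides, 18 had estimates below 0, with a median of -0.23, and 2 were nominal (11.1%, against 2.6% of all genes on the lower side). Galanin (Gal) lay between 2.07 and 4.81 CPM (median 4.03) against 4.68 and 6.96 CPM (median 5.83), a log2 fold change of -0.61. Penk, the enkephalin precursor, had -0.23 (118 to 152 CPM against 126 to 201). Tac1, which encodes substance P, had -0.39 and Cck -0.41, neither nominal.

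Neurofilament and cytoskeleton genes of neurons had 21 of 21 estimates below 0, a median of -0.16 and 4 nominal genes. Nefh, the heavy neurofilament chain, lay between 1245 and 1747 CPM (median 1391) against 1279 and 2643 CPM (median 1534), a log2 fold change of -0.28. Prph (-0.31), Kif5a (-0.20), an axonal motor, and Tubb4a (-0.18) were the others, and the intervals of all 21 lay within 1.5-fold in either direction. In the GABA and glycine list, 21 of 22 were below 0, with a median of -0.17 and 3 nominal genes, among them the transporter Slc6a11 (-0.22). The synthesis enzymes Gad1 and Gad2 had -0.11 and -0.07. Of 20 glutamate receptor genes, 19 were below 0, with a median of -0.15, and Grm8 (-0.50), Grik1 (-0.40) and Grm5 (-0.24) were nominal. Synaptic vesicle genes had 20 of 22 below 0 (median -0.15), voltage-gated channels 21 of 23 (median -0.11) and postsynaptic scaffold genes 15 of 18 (median -0.12).

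Vehicle library 7 had the highest neuron marker sum, 11810 CPM, where the other vehicle libraries started at 6980 and the treated libraries lay between 6636 and 8585. Without vehicle libraries 4 and 7 the medians were -0.07 for neurofilament and cytoskeleton genes with 1 nominal, -0.07 for GABA and glycine genes with 0 nominal, and -0.13 for neuropeptides with 1 nominal. In the same fit they were -0.07 for glutamate receptors, -0.06 for synaptic vesicle genes, -0.03 for voltage-gated channels and -0.06 for postsynaptic scaffold genes, with 2, 0, 0 and 1 nominal. The part of these libraries was not tested further. The 15 tested genes of the motor neuron and cholinergic list had 11 below 0 and 4 above, a median of -0.15 and 2 nominal genes, and a median of -0.18 without the pair. It was -0.07 without atorvastatin library 4 and -0.25 without atorvastatin library 2. Of the 6 motor neuron markers, 6 were below 0, with 2 nominal and a median of -0.32 with and without the pair. That median was -0.19 without vehicle libraries 1 and 7 and -0.24 without atorvastatin library 2 and vehicle library 3, with 0 nominal in either fit. Chat, which makes acetylcholine, had -0.33 (16.1 to 19.5 CPM, median 17.0, against 14.8 to 28.9, median 19.9). With vehicle libraries 1 and 7 left out instead, GABA and glycine genes had a median of -0.13 and 7 nominal. Synaptic vesicle genes then had -0.13 and 6, voltage-gated channels -0.14 and 4, and postsynaptic scaffold genes -0.16 and 4. Glutamate receptors had -0.16 and 3, and neurofilament and cytoskeleton genes -0.10 and 2. In that fit 7.18% of all genes were nominal, so the counts depended on the pair left out.

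Interneuron transcription factors split. Of 16 tested, 12 were below 0 and 4 above, the median was -0.22, and it was -0.06 without atorvastatin library 2 and vehicle library 3. Lhx1 (-1.01) and Pax2 (-0.52), both of dorsal inhibitory interneurons, were nominal below 0. Foxp2, a factor of ventral interneurons, was nominal above 0 at 0.61, with treated libraries at 11.3 to 22.9 CPM (median 16.4) and vehicle libraries at 7.87 to 11.8 CPM (median 10.6). Hox genes, which record position along the cord, had 15 of 20 below 0, a median of -0.10 and 4 nominal genes, all below 0. Hoxd10 had -1.01 (2.04 to 4.23 CPM, median 3.57, against 2.94 to 11.6, median 5.40), Hoxd9 -0.54, Hoxc10 -0.33 and Hoxb8 -0.28. Genes such as Hoxd10 and Hoxc10 are known for the lumbar cord. A difference in where sections were cut cannot be told apart from other differences between libraries. The Hox median was -0.01 without vehicle libraries 4 and 7, with 1 nominal gene.

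Respiratory chain genes had small estimates, most of them below 0, whose medians leaned on the vehicle libraries. Complex I subunits had 27 of 35 below 0 and a median of -0.07, with 0 nominal, and subunits of complexes II to V had 33 of 38 below 0 and a median of -0.09, with Cox8a (-0.21) nominal. Without vehicle library 7 alone the medians were -0.02 and -0.03, and without vehicle libraries 1 and 7 they were 0.02 and 0.01, above 0. Central myelin genes had a median of -0.05 and cytosolic ribosomal proteins one of 0.02, with 0 nominal in either list. Oligodendrocyte markers had a median of -0.05, oligodendrocyte precursor markers -0.03 and astrocyte markers 0.01.

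Markers of cells outside the cord parenchyma came next to the fibroblast list. Border-associated macrophages of the meninges and vessel sheaths had 8 of 8 markers above 0 and a median of 0.55. Of these, Stab1 (0.54) and Ms4a7 (0.57) were nominal and Mrc1 (23.5 to 40.3 CPM against 6.15 to 40.2) had 0.58 with an interval of -0.04 to 1.195. Without vehicle libraries 4 and 7 the median was 0.30 with 6 of 8 above 0. Schwann cells, which myelinate peripheral axons and enter the injured cord, had 7 of 8 markers above 0 and a median of 0.39. Their sum was 411 to 643 CPM in the treated libraries and 178 to 531 CPM in the vehicle libraries. Drp2, a protein of the Schwann cell surface, was nominal at 0.38. Prx, a protein of peripheral myelin, had 0.95 with an interval of -0.05 to 1.95. It was at 4.84 and 0.929 CPM in vehicle libraries 4 and 7 and between 44.6 and 59.9 CPM in the other 5 of that group. Without the pair the Schwann cell median was 0.18. Of cell types not confined to the outside of the parenchyma, pericyte and smooth muscle markers had a median of 0.33, endothelial markers 0.27 and microglial markers 0.12. Without the pair these medians were 0.09, 0.17 and 0.06. Endothelial estimates were above 0 for 8 of 10 markers, and the most abundant markers, Slc2a1 and Flt1, had -0.07 and 0.00.

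Skeletal muscle markers had 7 of 7 estimates above 0 and a median of 2.03, and this value rested on single libraries. It was -1.08 without atorvastatin library 2 and 4.99 without vehicle library 3. The sums were 2541 CPM in atorvastatin library 2, 171 CPM in atorvastatin library 4 and 718 CPM in vehicle library 3, and between 6.69 and 31.3 CPM in the other 11. Collagens without atorvastatin library 2 and vehicle library 3 had a median of 0.57 with 11 of 20 nominal. Fibroblast markers had 0.72 with 2 of 10 nominal, against 7 of 10 in all libraries. The fibroblast and scar matrix list had 0.52 with 6 nominal. In that fit 4.68% of all genes were nominal. Fewer than 5 markers were tested for adipocytes, dorsal root ganglion neurons, liver and red blood cells, and these lists are not ranked.

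How large a change 7 against 7 libraries can exclude depended on the level of the gene. The 95% interval had a median half-width of 0.32 on the log2 scale, or 1.25-fold, over all tested genes. Intervals lay within 1.5-fold in both directions for 10044 genes (61.4%) and within 2-fold for 12822 (78.4%), and within 25% for 4676 (28.6%). Below 1 CPM the median half-width was 1.87, or 3.66-fold, over 942 genes, and 0 of them had an interval within 2-fold. From 1 to 10 CPM 46.9% of 4548 genes were within 2-fold, from 10 to 100 CPM 98.0% of 8602, and at 100 CPM or more 99.4% of 2269. With intervals widened to cover all genes at once by the Bonferroni method, 7176 genes (43.9%) were within 2-fold, and the median half-width was 0.97, or 1.95-fold. For Hmgcs1, levels above 1.08 or below 0.775 times that of the vehicle group lay outside the 95% interval. The 95% intervals of Fabp7, Abca1 and Lhx1 left out 0, but each such interval covers 1 gene at a time and not all 16361.

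**Figure D5:**
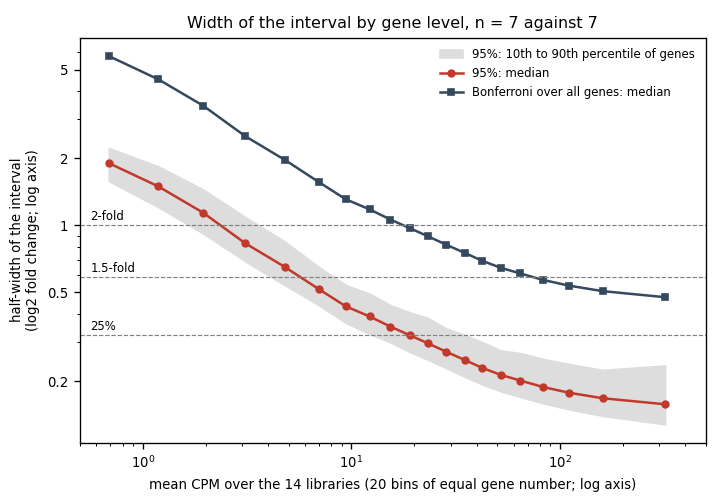
Half-width of the interval on the log2 scale (y axis, log axis) against mean CPM over the 14 libraries (x axis, log axis), for 20 bins with equal numbers of genes. Points are bin medians of the 95% and the Bonferroni interval, and the grey band spans the 10th to 90th percentile of genes for the 95% interval. The half-width narrows from several-fold below 1 CPM to 1.12-fold, in the median, at 100 CPM or more.

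The vehicle libraries were the more widely spread in most genes, which is given as a description with no test. The ratio of the vehicle variance to the atorvastatin variance of log2 CPM had a median over genes of 1.55, the variance was larger in the vehicle group for 68.0% of genes, and the median SD was 0.312 against 0.254. This leaned on a few vehicle libraries: the median ratio was 1.13 without vehicle libraries 4 and 7 and 1.06 without 1 and 7.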

How the data were processed

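RNA was measured in 5 mm sections of cord from 14 injured mice, labelled as biological replicates. Libraries were made with a stranded total RNA kit. Per the submitters' processing notes, the authors used FastQC 0.12.1, Trimmomatic 0.38, STAR 2.5.4b and RSEM 1.3.1 with mm10. The deposited count table holds raw whole-number counts per gene symbol, and the deposited TPM table holds TPM per gene by the authors. The step that made whole-number counts, and its strand setting, are not given in the sources used here, so overlapping and antisense genes may share counts.

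Genes with at least 10 counts in at least 7 of 14 libraries were tested with edgeR 4.0.16 (R 4.3.3, TMM scaling, quasi-likelihood test of atorvastatin against vehicle, Benjamini-Hochberg adjustment over all 16361 genes). CPM used TMM library sizes. Intervals are 95% from the t quantile and a standard error derived from the test, as the absolute estimate divided by the square root of the F statistic. Intervals and floors on counts of 0 cover counting error or the spread between these libraries, and PCR copies were not separable. DESeq2 1.42.0, limma 3.58.1 on log2(TPM + 1) and on log2(TPM + 0.1), other scaling and filters, all 3 groups in 1 fit, the replicate number as a block and leaving out libraries were alternatives. Scripts were tested on simulated data. Figures were drawn with matplotlib 3.10.9 and summaries made with pandas 2.3.3 in Python 3.11.15.

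The 78 pathway lists and 21 cell type lists hold 1500 different symbols, of which 1490 matched (3 by a synonym) and 1429 were tested. The other 10, Ccn1 among them, were not analysed here. Named genes were the 10 smallest p in each direction, a panel of sterol and statin-response genes, the 3 smallest p in each of the 5 highest and 5 lowest pathway lists, the 2 most abundant markers of each cell type and the 5 abundant genes with the narrowest intervals. Further list members are named as examples from their counts. Some named genes are not reported here. The members and lists were chosen with earlier results of these data known. Gene positions, promoters and motif searches used the RefSeq tables for GRCm38.p6.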

Additional observations from a re-analysis of the deposited data

Results flagged for a closer look

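A library was marked when its gap to its nearest neighbour took up an unusually large share of its group's range (Dixon's test, 7 libraries a group). This held in 19 of 142 groups of values (13.4%), where 7.1 would be marked by chance at 5%. Vehicle library 7 accounted for 5 and atorvastatin library 2 for 4.

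Vehicle library 4 had the lowest total, 14823292 counts, and vehicle library 7 the lowest share of counts in its 10 largest genes, 7.63%. Vehicle library 7 was also highest for oligodendrocyte markers (19676 CPM), neuron markers (11810 CPM) and the peripheral myelin list, which includes Mbp (10176 CPM), and lowest of its group for Abca1 (376 CPM). Atorvastatin library 2 was highest for skeletal muscle (2541 CPM) and adipocyte markers (44.3 CPM) and lowest for oligodendrocyte precursor markers (589 CPM) and Nos3 (7.90 CPM).

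Vehicle library 3 was highest for skeletal muscle (718 CPM) and dorsal root ganglion markers (89.6 CPM). Vehicle library 2 was highest for neutrophil (209 CPM) and red blood cell markers (95.5 CPM). Vehicle library 1 was lowest for astrocyte markers (12611 CPM) and Rhob (135 CPM). Among named genes, vehicle library 6 was lowest for Lhx1 (5.04 CPM), atorvastatin library 6 highest for 2610100L16Rik (12.9 CPM) and atorvastatin library 4 lowest for Klf2 (7.38 CPM). The causes were not tested.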

How the results depend on the processing

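Over 30 alternatives, 0 gave a gene past an adjusted p of 0.05, and the smallest adjusted p reached 0.182 with DESeq2 and 0.0828 with limma on log2(TPM + 0.1). The number at an unadjusted p below 0.05 was 1067 and became 440 with all 3 groups in 1 fit, 623 without vehicle libraries 4 and 7 and 2605 of 21820 genes with no filter, and ranged from 787 to 1587 with 1 library left out. The number past p below 0.001 and 25% was 16 and became 41 with DESeq2, 1 with all 3 groups, 7 without atorvastatin library 2 and vehicle library 3, 3 without vehicle libraries 4 and 7 and 8 with the replicate block, and ranged from 5 to 31 with 1 library left out. The ratio of variances, 1.55, became 1.06 without vehicle libraries 1 and 7 and 1.13 without 4 and 7, and ranged from 1.30 to 1.65. The cause was not tested. Leaving out pairs of libraries was chosen after seeing the data.

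The collagen median stayed between 0.41 and 0.83 (8 to 17 nominal members), the fibroblast and scar median between 0.33 and 0.75 (4 to 14) and the fibroblast marker median between 0.49 and 1.41 (2 to 9). Of 106 named genes, 31 changed sign in at least 1 alternative, Hmgcs1 among them, and each of the 31 had an interval that spans 0. No alternative moved the median of all genes by more than 0.024. Replicate numbers did not pair the libraries: the correlation of deviations was between -0.14 and 0.09, and 0 of 14 libraries correlated best with their own number. The block gave 0 adjusted calls and 921 nominal genes. Depth limits genes under 1 CPM, where no interval was within 2-fold.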
